A study of Homo sapiens with 32 samples.

Results

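The genes described here are 10 genes whose RNA level differed strongly between control clones of the human colorectal cancer line HCT116. They are TPBG, TM9SF3, TMEM200A, LMAN1, PRPS1, LRP1B, UTS2B, CD33, MAL2 and LNCAROD, 10 of the 57820 genes listed for HCT116, and 5 of them are among the 11887 genes listed for HEK293, a human embryonic kidney cell line. They were chosen by their CPM in the 4 control clones, as genes among those that differed most between them, so those differences are given as a description with no test. All 10 are among the 7.89% of tested genes called between these clones, as that choice makes likely. Ranked by the log2 range of the 4 clone means among 14685 tested genes, LRP1B stood at rank 2, UTS2B at 3, LNCAROD at 7, PRPS1 at 9, CD33 at 14, TM9SF3 at 22, LMAN1 at 23, TPBG at 32, TMEM200A at 46 and MAL2 at 91. A range of at least 4-fold between clone means was reached by 58 of the 14685 genes (0.395%), and most other genes with ranges as large are not described. MAL2, with a log2 range of 1.73, lies just outside that fold, and TMEM200A, with 2.14, just inside it.

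The study asked what the loss of a distal regulatory element does to gene expression. Each library was made from the descendants of 1 cell, sorted for a green fluorescent marker that came with Cas9. Control clones had received an empty guide vector with it, and deletion clones had received guides against an element named E7, 18qNE or 18qE. In HCT116, control clones 1 to 4 and 1 E7 deletion clone were each extracted on days A, B and C, which gave 12 control and 3 E7 libraries. The 18qNE deletion was represented by 3 clones with 1 library each (clones 1 and 3 on day A, clone 2 on day B). On day D, 2 libraries labelled control clone 1 and control clone 2 were made together with 2 libraries of 18qE deletion clones. In HEK293 there were 2 control libraries and 2 E7 deletion libraries, all of day E, and the labels give both E7 libraries the same clone name. A guide vector, a Cas9 transfection and a single-cell bottleneck are thus shared by controls and deletions. Days are days of RNA extraction, and libraries of a clone on different days measure the spread between extractions, not between clones.

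Depth ran from 9871667 to 14862268 gene counts in the libraries of days A, B and C, with 22972412 to 24887785 in those of day D and 26491576 to 34790193 in those of HEK293. Levels are CPM, the usual depth-scaled count, and in HEK293 they are scaled over the shorter list of genes. Of 15 markers of colorectal epithelium, 8 reached 1 CPM in the control clones, among them the adhesion molecule EPCAM (274 to 388 CPM over the 22 HCT116 libraries) and the intestinal transcription factor CDX2 (14.9 to 26.4 CPM). Others varied more: HNF4A ran from 0.087 to 15.6 CPM and KRT20 from 0.421 to 10.2 CPM over these libraries. In the E7 clone HNF4A (log2 difference -5.06) and CDH1 (-0.73) were lower than in the control clones, and in control clone 4 KRT20 was lower than in the rest (-2.62). The differentiation markers CDX1, VIL1, CEACAM5 and TFF3 stayed under 0.3 CPM in every HCT116 library. In HEK293, 6 of 11 markers of that line were listed, with the transcription factor GATA3 at 20.8 to 29.8 CPM (2.17 to 3.61 CPM in the HCT116 control clone means) and DPYSL3 at 118 to 139 CPM (73.0 to 82.0 CPM). SOX11 (0.764 to 355 CPM) and NEFM (0.632 to 35.8 CPM) differed widely between HEK293 libraries. Markers of each list were also read in the other line: PAX2 averaged 8.41 to 12.8 CPM in the HCT116 control clones, and EPCAM (76.5 to 228 CPM), KRT8 (220 to 567 CPM) and CDX2 (6.43 to 22.8 CPM) were read in HEK293.

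Both control libraries of day D went against their labels. A set of 49 other genes with at least a 4-fold range between the control clones was used to compare each library with the mean of each clone. All 12 libraries of days A to C correlated best with their own clone, each left out of its clone's mean. The 49 genes were chosen from these same 12 libraries, so that match is largely set by the choice, while the day D libraries had no part in it. The library labelled control clone 1 of day D correlated at r = 0.89 with control clone 4 and at -0.51 with control clone 1. The library labelled control clone 2 of day D reached at most 0.31, with control clone 4, and -0.18 with control clone 2. These correlations describe 49 genes that share their libraries and carry no test. Each result that rests on the day D controls is given with this in view, and 18qE clones have no other controls of their day.

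**Figure D1:**
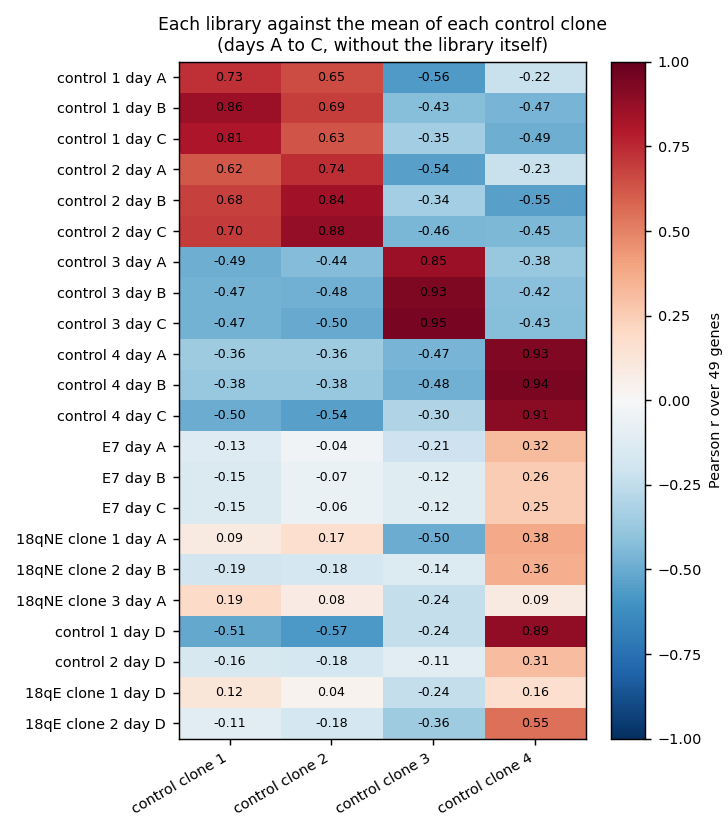
Pearson correlation (colour and printed value, no unit) of each HCT116 library (rows) with the mean of each control clone on days A to C (columns), over 49 clone-variable genes without the 10 described here. The 12 libraries of days A to C match their own clone, while the library labelled control clone 1 of day D has 0.89 with clone 4 and -0.51 with clone 1.

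A clone inherits the expression state of the founding cell as well as its genome, and genes that are held stably on or off can differ between sister clones of a line without any engineered change. The 10 genes serve different functions. TM9SF3 encodes a membrane protein of the Golgi, and LMAN1 a lectin that carries glycoproteins, including coagulation factors, from the endoplasmic reticulum to the Golgi together with MCFD2. TPBG, LRP1B and CD33 encode cell surface proteins: an oncofetal glycoprotein that dampens Wnt signalling, a large endocytic receptor, and a sialic acid binding receptor of myeloid cells. TMEM200A encodes a protein of the membrane, UTS2B a small peptide hormone of the urotensin family, MAL2 a protein of apical transport in epithelia, PRPS1 an enzyme that makes phosphoribosyl pyrophosphate for nucleotide synthesis, and LNCAROD a long noncoding RNA next to the Wnt inhibitor gene DKK1.

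Promoter sequences from RefSeq (GRCh38.p14, not the hg19 build of the count files) were matched by symbol for 8 of the 10 genes. The 250 bases before an annotated start are shown 5′ to 3′ for 4 genes, in the direction of the gene, with the dinucleotide CG in capitals. TM9SF3 (chr10:96587013-96587262, minus strand) and LMAN1 (chr18:59359266-59359515, minus strand) are shown because they moved together across libraries. CD33 (chr19:51224830-51225079, plus strand) and the first listed start of LNCAROD (chr10:52470534-52470783, minus strand) are shown because both were low in control clone 4.
TM9SF3: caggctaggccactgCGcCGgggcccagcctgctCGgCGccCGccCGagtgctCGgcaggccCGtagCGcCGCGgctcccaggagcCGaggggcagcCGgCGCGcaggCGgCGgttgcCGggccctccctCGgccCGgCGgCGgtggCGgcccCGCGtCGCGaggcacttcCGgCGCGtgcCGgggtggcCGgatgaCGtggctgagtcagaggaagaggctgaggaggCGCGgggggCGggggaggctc
LMAN1: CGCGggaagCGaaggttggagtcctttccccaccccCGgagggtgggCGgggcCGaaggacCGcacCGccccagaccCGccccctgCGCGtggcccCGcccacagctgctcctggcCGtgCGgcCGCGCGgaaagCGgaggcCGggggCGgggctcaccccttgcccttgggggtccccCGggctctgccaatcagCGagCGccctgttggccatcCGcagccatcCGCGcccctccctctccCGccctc
CD33: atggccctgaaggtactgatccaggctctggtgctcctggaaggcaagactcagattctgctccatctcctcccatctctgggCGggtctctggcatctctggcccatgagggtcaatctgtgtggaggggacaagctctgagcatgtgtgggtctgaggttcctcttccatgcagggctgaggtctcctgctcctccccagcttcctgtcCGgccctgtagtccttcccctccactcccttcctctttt
LNCAROD: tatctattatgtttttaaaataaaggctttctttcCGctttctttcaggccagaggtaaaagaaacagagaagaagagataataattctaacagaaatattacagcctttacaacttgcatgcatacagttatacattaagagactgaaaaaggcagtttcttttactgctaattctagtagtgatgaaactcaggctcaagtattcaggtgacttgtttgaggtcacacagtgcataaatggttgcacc

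The window of TM9SF3 held 36 CG dinucleotides and that of LMAN1 27, against a median of 11 (quartiles 3 and 23) over 35116 promoters of this length. TMEM200A had 22 and PRPS1 19, the 3 listed starts of TPBG 4, 15 and 12, and UTS2B 7. CD33 had 2 (14.7% of promoters had fewer), and each of the 2 listed starts of LNCAROD had 1. A match to CCAAT on either strand was present in the windows of LMAN1, TMEM200A, PRPS1 and the first start of TPBG (32% of all promoters hold it), and none of the 11 windows held TATAAA (10.7%). The genes that were low in 1 clone therefore include windows both rich and poor in CG. These letters describe the reference sequence, and methylation at these starts was not measured.

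TM9SF3 and LMAN1 were both low in control clone 3 alone. TM9SF3 (ENSG00000077147.10) stood at 162, 186 and 171 CPM in control clone 1 on days A, B and C, at 180, 185 and 169 CPM in clone 2, at 26.9, 27.8 and 27.8 CPM in clone 3, and at 175, 181 and 187 CPM in clone 4. LMAN1 (ENSG00000074695.5) stood at 138, 174 and 162 CPM in clone 1, 182, 168 and 161 CPM in clone 2, 25.5, 26.4 and 26.5 CPM in clone 3, and 151, 157 and 180 CPM in clone 4. The 3 libraries of clone 3 lie far below the other 9 for both genes, and neither gene is off in them. The mean of the other 3 clones was 6.45-fold that of clone 3 for TM9SF3 and 6.26-fold for LMAN1. Over all tested genes, 1.97% had every library of clone 3 below the other 9 and 1.38% above them. Of the 10, TM9SF3, LMAN1, PRPS1 and MAL2 were below and TPBG, LRP1B and UTS2B above, which follows from how they were chosen. The coefficient of variation over days within clone 3 was 1.99% for TM9SF3 and 2.08% for LMAN1.

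Outside control clone 3, TM9SF3 and LMAN1 differed little between HCT116 libraries. TM9SF3 read 167, 178 and 186 CPM in the E7 clone, 190, 196 and 184 CPM in the 18qNE clones 1 to 3, 139 and 148 CPM in the libraries labelled control clones 1 and 2 of day D, and 151 and 169 CPM in the 18qE clones. LMAN1 read 153, 135 and 139 CPM in the E7 clone, 171, 173 and 169 CPM in the 18qNE clones, 119 and 139 CPM in the day D controls, and 140 and 164 CPM in the 18qE clones. No deletion clone shared the low level of clone 3. The correlation of the log2 levels of the 2 genes over the 22 HCT116 libraries was 0.99, the highest that either gene had with any of 13568 genes. That value is a description, since it rests on the 3 libraries of clone 3 standing apart from a tight group. The genes lie on different chromosomes, 10 and 18.

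Other genes of the same transport steps did not share the low level in clone 3. Of 29 tested genes of endoplasmic reticulum to Golgi transport, none was lower in clone 3 than in the other 3 clones and 4 were higher, where 3.26% of all genes were lower and 4.4% higher. The 4 were SEC23A (log2 difference 0.31, SE 0.08, edgeR quasi-likelihood test with Benjamini-Hochberg adjusted p = 0.0293) and SEC31A (0.33, SE 0.09, adjusted p = 0.0333), subunits of the COPII coat that buds vesicles toward the Golgi, with KDELR3 (0.35) and ERGIC1 (0.28). MCFD2, the partner of LMAN1, averaged 97.8 CPM in clone 3 and 93.8 to 98.2 CPM in the other clones. Of 3 tested relatives of TM9SF3 in its own family, none passed the test in clone 3, where 7.65% of all genes did. For lists this short, a count of none lower is near the share over all genes.

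PRPS1 (ENSG00000147224.6) had a different level in each control clone. It read 63.7, 68.0 and 57.4 CPM in clone 1, 30.2, 36.5 and 37.0 CPM in clone 2, 7.54, 5.86 and 7.75 CPM in clone 3, and 78.9, 102 and 105 CPM in clone 4. The libraries of the 4 clones did not overlap, in the order 3, 2, 1 and 4, and the highest clone mean was 13.5-fold the lowest. The E7 clone read 87.0, 99.3 and 103 CPM, within the span of clone 4. Among the 18qNE clones, clones 1 and 2 read 73.2 and 117 CPM and clone 3 only 8.33 CPM. On day D, PRPS1 read 96.3 CPM in the library labelled control clone 1 and 6.44 CPM in that labelled control clone 2, against 109 and 94.5 CPM in the 18qE clones. A low level near that of control clone 3 was thus met again in an 18qNE clone and in a day D control, and not in the other HCT116 libraries. Of 20 tested genes of phosphoribosyl pyrophosphate and purine synthesis, none passed the test in clone 3, where 7.65% of all genes did.

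**Figure D2:**
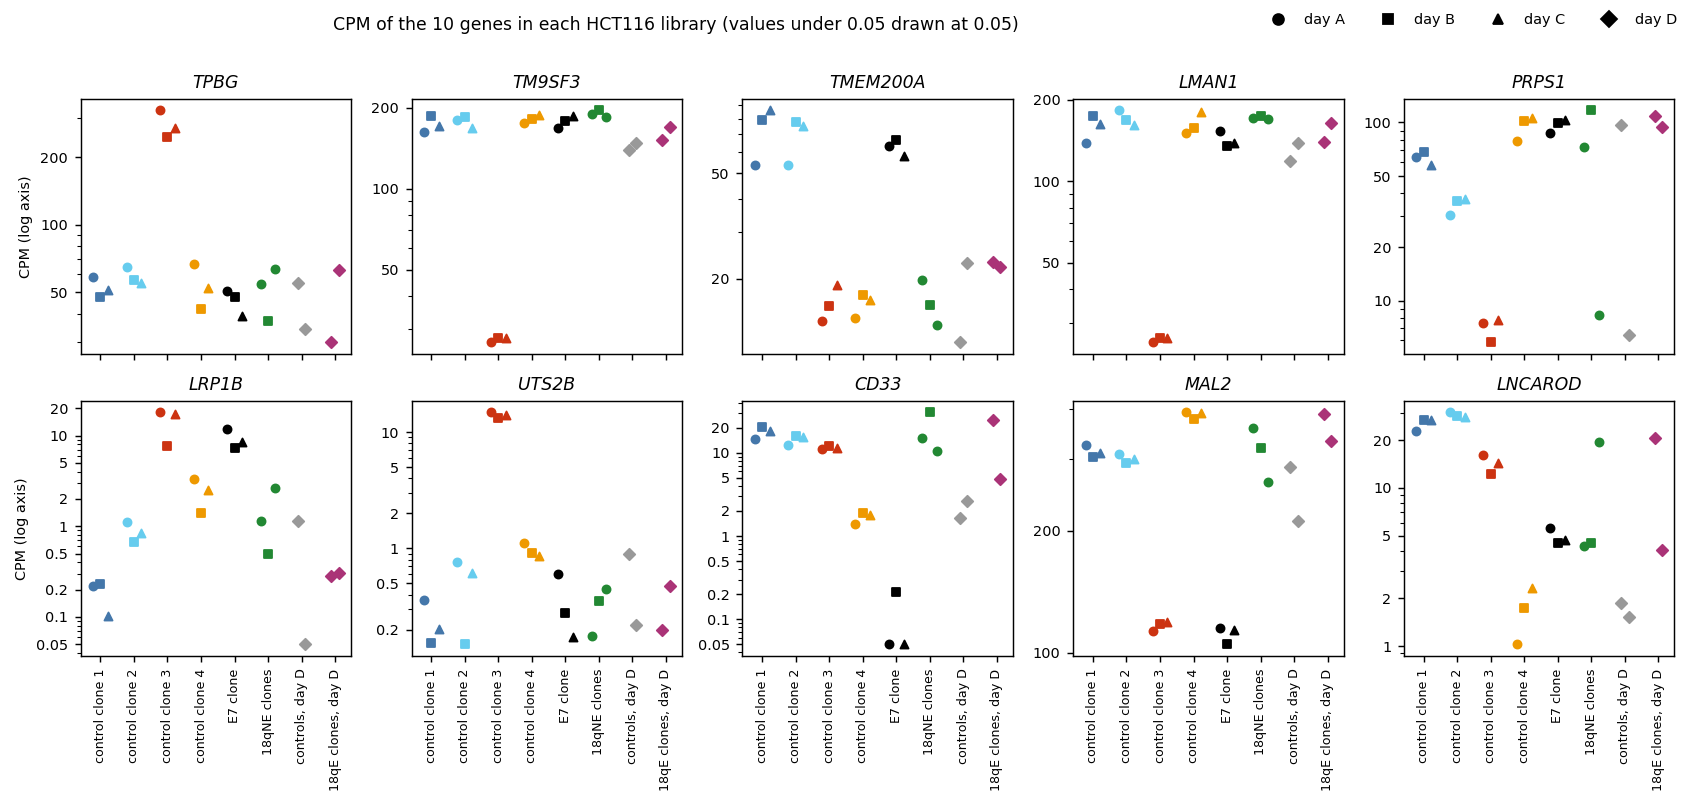
CPM (log axis) of the 10 genes in the 22 HCT116 libraries, by control clone, deletion and day, with 1 point per library and the shape giving the extraction day. Control clone 3 stands apart for TPBG, TM9SF3, LMAN1, PRPS1, LRP1B, UTS2B and MAL2, control clone 4 for CD33 and LNCAROD, and TMEM200A divides clones 1 and 2 from clones 3 and 4.

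TPBG was high in control clone 3 and even elsewhere. TPBG (ENSG00000146242.5) read 58.4, 47.7 and 51.0 CPM in clone 1, 65.0, 56.3 and 55.0 CPM in clone 2, 325, 246 and 270 CPM in clone 3, and 66.5, 41.9 and 52.1 CPM in clone 4. Clone 3 averaged 280 CPM (SD 40.3, n = 3 days), 5.11-fold the mean of the other clones. The E7 clone read 50.3, 47.7 and 39.0 CPM, the 18qNE clones 54.3, 37.1 and 63.4 CPM, the day D controls 54.7 and 34.2 CPM, and the 18qE clones 29.9 and 62.5 CPM. No HCT116 library outside clone 3 exceeded 66.5 CPM. Of 13 tested Wnt receptors and partners of TPBG, none passed the test in clone 3, where 7.65% of all genes did.

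UTS2B was close to off in all HCT116 libraries except those of control clone 3. With under 0.3 CPM called off, about 3 counts in the shallowest library, and 1 CPM or more called on, UTS2B (ENSG00000188958.5) was off in 8 of 22 libraries, in between in 10 and on in 4. Clone 3 read 14.8, 13.2 and 13.9 CPM (140 to 202 counts a library), and clone 4 read 1.12, 0.914 and 0.859 CPM. Clones 1 and 2 had 2 to 11 counts a library (0.150 to 0.761 CPM), the E7 clone 2 to 9 counts and the 18qNE clones 2 to 6. Day D gave 0.889 and 0.218 CPM in the controls and 0.201 and 0.476 CPM in the 18qE clones. Clone 3 averaged 24.5-fold the mean of the other clones. UTS2, the sister peptide gene, averaged 1.06 CPM in clone 3 and 2.04 to 2.47 CPM in the others, a difference that did not pass the test.

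LRP1B had the widest log2 range of the 10 between control clone means, and ran from 1 count to 246 counts in a library. LRP1B (ENSG00000168702.12) had 3, 3 and 1 counts in clone 1 (0.218, 0.233 and 0.101 CPM), and read 1.11, 0.675 and 0.842 CPM in clone 2. Clone 3 read 18.0, 7.73 and 17.3 CPM and clone 4 read 3.36, 1.41 and 2.499 CPM. The order of the clones, 1, 2, 4 and 3, holds for every library of days A to C without overlap, and clone 3 averaged 12.4-fold the mean of the others. The E7 clone came next to clone 3, with 11.7, 7.30 and 8.44 CPM. The 18qNE clones read 1.14, 0.497 and 2.63 CPM, and the 18qE clones 0.281 and 0.303 CPM. In the library labelled control clone 1 of day D LRP1B read 1.13 CPM, and in that labelled control clone 2 it had 1 count. It was off in 5 of 22 libraries.

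MAL2 was low in control clone 3 and in the E7 clone. MAL2 (ENSG00000147676.9) read 325, 304 and 312 CPM in clone 1, 309, 293 and 301 CPM in clone 2, 113, 118 and 119 CPM in clone 3 and 392, 378 and 391 CPM in clone 4. In the E7 clone it read 115, 105 and 114 CPM, so that the E7 libraries overlap those of clone 3 and lie below the other 9 control libraries. The 18qNE clones read 358, 321 and 264 CPM, the day D controls 287 and 211 CPM, and the 18qE clones 388 and 333 CPM. Of 16 tested proteins with a MARVEL domain and partners of MAL2, 3 were lower and 1 higher in clone 3, where 3.26% of all genes were lower and 4.4% higher. Those lower were OCLN, the tight junction protein occludin (log2 -0.40, SE 0.08, edgeR adjusted p = 0.00487), MARVELD3 (-0.31) and TPD52L1 (-0.29). OCLN averaged 38.3, 38.7, 30.6 and 47.6 CPM in clones 1 to 4, and its higher level in clone 4 enlarges that difference. PLLP was higher (0.81, SE 0.16).

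TMEM200A divided the control clones into pairs. TMEM200A (ENSG00000164484.7) read 53.4, 79.4 and 86.1 CPM in clone 1 and 53.6, 78.1 and 75.3 CPM in clone 2, against 13.8, 15.9 and 18.9 CPM in clone 3 and 14.3, 17.4 and 16.6 CPM in clone 4. The E7 clone stood with clones 1 and 2, at 63.5, 66.8 and 57.8 CPM. All other HCT116 libraries stood near the low pair: 19.8, 15.9 and 13.4 CPM in the 18qNE clones, 11.6 and 22.9 CPM in the day D controls, and 23.2 and 22.2 CPM in the 18qE clones. The library labelled control clone 1 of day D was 6.31-fold lower than clone 1 on days A to C.

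CD33 was low in control clone 4 and next to absent in the E7 clone. CD33 (ENSG00000105383.10) read 14.7, 20.2 and 18.2 CPM in clone 1, 12.3, 15.8 and 15.6 CPM in clone 2, 11.2, 11.97 and 11.4 CPM in clone 3, and 1.40, 1.91 and 1.80 CPM in clone 4. The E7 clone had 0, 3 and 0 counts on days A, B and C. Counts of 0 allow up to 0.202 CPM on day A and 0.261 CPM on day C, for counting error only. The 18qNE clones read 15.2, 30.5 and 10.4 CPM, and the 18qE clones 24.6 and 4.85 CPM. Both day D controls were low, at 1.66 and 2.65 CPM, 10.7-fold under clone 1 and 5.49-fold under clone 2 of days A to C. Markers of myeloid cells, in which CD33 is usually found, were scarce: of 14, 2 reached 1 CPM in the control clones, their summed level was 1.80 to 4.46 CPM over the control libraries of days A to C and 1.74 to 3.70 CPM in the E7 libraries, PTPRC had 1 count in 22 libraries, and FCGR1A and CD163 had none. LYZ was higher in the E7 clone than in the controls (log2 1.93, SE 0.30, edgeR adjusted p = 0.00621), at most 2.09 CPM in any HCT116 library. ITGAX was higher in control clone 3 than in the rest (log2 1.095, SE 0.25, edgeR adjusted p = 0.0142), at most 2.85 CPM. CD22, the only relative of CD33 that passed the count filter among the control clones, was higher in clone 4 than in the rest (log2 1.04, SE 0.25, edgeR adjusted p = 0.0231), but it averaged 1.05, 1.06, 2.61 and 2.93 CPM in clones 1 to 4 and so was nearly as high in clone 3.

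LNCAROD, like CD33, was lowest in control clone 4. LNCAROD (ENSG00000231131.2) read 22.8, 26.97 and 26.8 CPM in clone 1, 30.04, 28.5 and 28.01 CPM in clone 2, 16.2, 12.3 and 14.4 CPM in clone 3, and 1.03, 1.74 and 2.34 CPM in clone 4. Clone 4 lay below the other 9 libraries for LNCAROD and CD33, as for 1.36% of all genes, and the mean of the other 3 was 13.4-fold that of clone 4. Intermediate levels of 5.58, 4.50 and 4.70 CPM were read in the E7 clone, and of 4.30 and 4.47 CPM in 18qNE clones 1 and 2. 18qNE clone 3 read 19.6 CPM, and the 18qE clones 20.8 and 4.07 CPM. Day D controls read 1.86 and 1.52 CPM, within the span of clone 4 and 13.7-fold and 18.9-fold under clones 1 and 2 of days A to C.

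The next question was whether the neighbours of each gene on its chromosome shared its level in the clone where it stood apart. Up to 5 tested genes on each side were read in that clone against the other 3, and 7.65% of all genes were called in clone 3, 5.30% in clone 4 and 0.953% in clone 1. TMEM200A stood apart in no single clone. Its neighbours were read in clone 1, with clone 2 at a similar level (73.0 and 69.0 CPM) among the other 3, which makes that contrast smaller. For TPBG, 4 of 10 neighbours were called in clone 3, all higher: the nearest tested gene on one side and the nearest 3 on the other. TENT5A, the next gene beyond IBTK, was not called (log2 -0.11). IBTK, an inhibitor of a B cell kinase, was higher by a log2 of 1.75 (SE 0.08, edgeR adjusted p = 1.46e-09) and UBE3D by 1.01 (SE 0.11), while DOP1A (0.48) and PGM3 (0.23) followed farther out. IBTK read 417, 273 and 374 CPM in clone 3 and 86.6 to 133 CPM in the other 9 control libraries, so its libraries do not overlap either. LNCAROD had 2 neighbours called in clone 4, both lower and both on one side. DKK1, a secreted inhibitor of Wnt signalling, was lower there by a log2 of -2.72 (SE 0.12, edgeR adjusted p = 3.79e-09), and PRKG1-AS1 by -1.83 (SE 0.24). DKK1 read 112, 102 and 152 CPM in clone 4 and 711 to 961 CPM in the other 9 control libraries. It was also below that span in the E7 clone (271, 286 and 343 CPM) and in the 18qNE clones (353, 230 and 369 CPM), and likewise in both day D controls (125 and 216 CPM) and both 18qE clones (544 and 245 CPM).

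**Figure D3:**
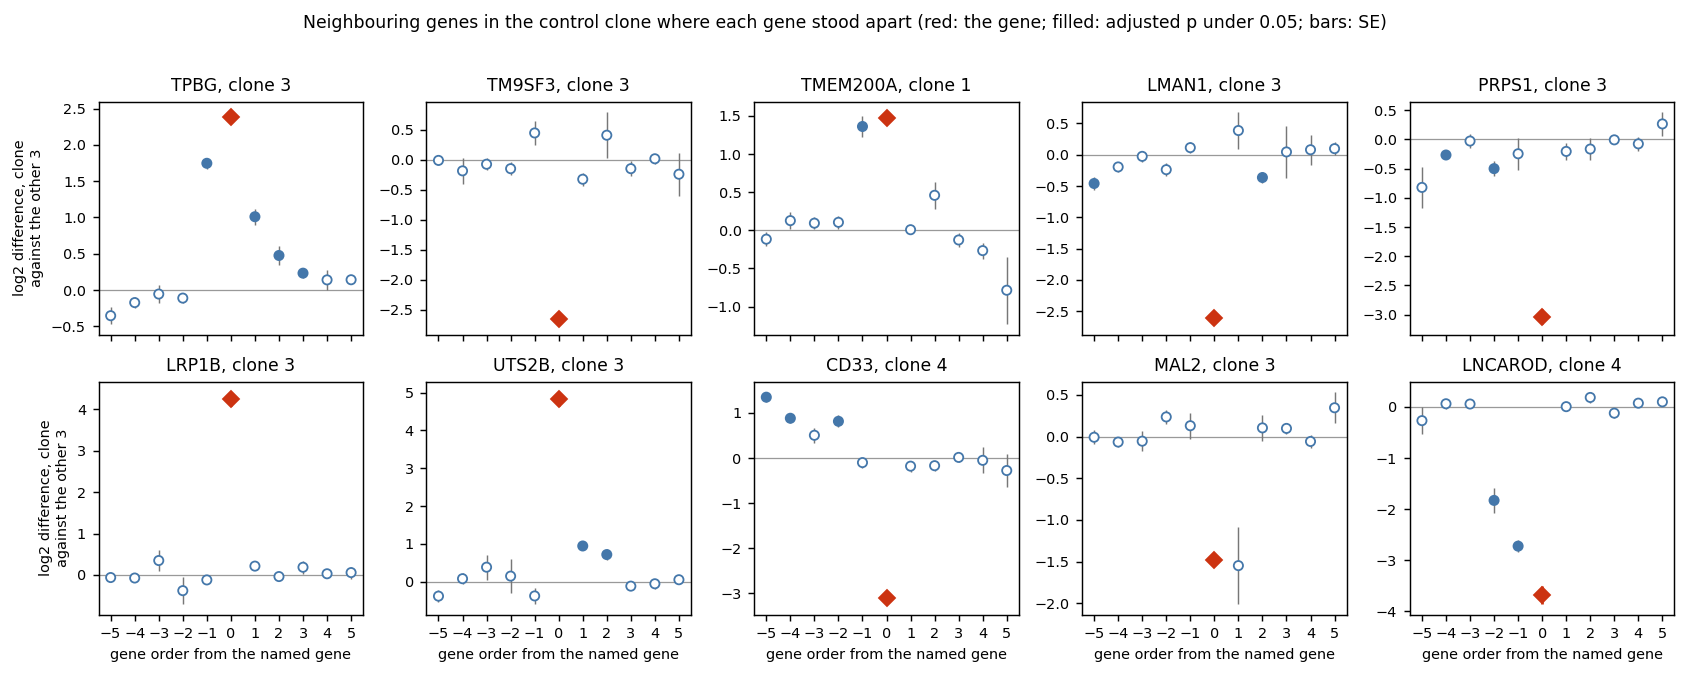
Log2 difference (vertical axis, bars show SE) of the control clone named in each panel against the other 3 control clones, for the named gene (red, at 0) and up to 5 tested neighbours on each side by gene order (horizontal axis, no distance). Filled points have an edgeR adjusted p under 0.05. The nearest gene on one side of TPBG and the nearest 3 on the other are higher with it, while 2 on one side of LNCAROD are lower with it.

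For TM9SF3, LRP1B and MAL2 no neighbour was called in clone 3. LMAN1 and PRPS1 each had 2 of 10 neighbours called, all lower, with differences far smaller than that of the gene itself. They were ATP8B1 (log2 -0.46) and PMAIP1 (-0.36) for LMAN1, and NUP62CL (-0.50) and MORC4 (-0.27) for PRPS1. The nearest tested gene on each side was not called: SEC11C (0.11) and CCBE1 (0.39) beside LMAN1, and FRMPD3 (-0.25) and TSC22D3 (-0.21) beside PRPS1. For UTS2B, CCDC50 (0.94, SE 0.07, edgeR adjusted p = 6.87e-07) and MB21D2 (0.72, SE 0.15) were higher. SAMD3 was the only called neighbour of TMEM200A, higher in clone 1 by 1.36 (SE 0.14, edgeR adjusted p = 4.63e-05), and it read 8.48 to 10.6 CPM in clones 1 and 2 and 1.44 to 3.32 CPM in clones 3 and 4. Around CD33 the called neighbours went the other way: the kallikrein genes KLK6 (1.35, SE 0.11), KLK7 (0.88) and KLK10 (0.82) were higher in clone 4, where CD33 was low. KLK10 averaged 9.25, 7.88, 18.8 and 19.7 CPM in clones 1 to 4, so it was nearly as high in clone 3, where CD33 was not low. The strand setting of the counts was not given in the sources used here. TMEM200A overlaps SAMD3 in the annotation, UTS2B overlaps CCDC50, and MAL2 overlaps MAL2-AS1 (log2 -1.55 in clone 3, SE 0.46, adjusted p = 0.0534 by edgeR), so reads of these pairs may not be fully told apart. No listed gene overlaps LMAN1, PRPS1 or LNCAROD.

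Across the 22 HCT116 libraries, the gene closest in pattern was another of the 10 for TM9SF3, LMAN1, TPBG and UTS2B, a neighbour on the chromosome for LNCAROD and TMEM200A, and neither for PRPS1, LRP1B, CD33 and MAL2. The measure was Pearson's r of log2(CPM + 0.5) for genes that averaged 1 CPM or more, given as a description over libraries that share clones and days. TPBG was closest to UTS2B (0.95) and to its neighbour IBTK (0.94). LNCAROD was closest to its neighbours DKK1 (0.93) and PRKG1-AS1 (0.88), and TMEM200A to its neighbour SAMD3 (0.89). MAL2 was closest to GRHL2 (0.91), a transcription factor of epithelia, and MEF2C (0.91). GRHL2 averaged 16.1 CPM in clone 3 and 15.9 CPM in the E7 clone and at least 22.4 CPM in every other HCT116 clone. CD33 was closest to SNTG2 (0.92) and CPLX1 (0.91), LRP1B to COL6A1 (0.91) and S100A4 (0.90), and PRPS1 to CAB39 (0.84) and CLMP (0.84). S100A4, a calcium binding protein, averaged 319 CPM in clone 3 and 379 CPM in the E7 clone and 76.7 to 97.2 CPM in control clones 1, 2 and 4, the same 2 clones being high as for LRP1B. CLMP, a junctional adhesion protein, averaged 0.348 CPM in clone 3 and 0.218 CPM in the library labelled control clone 2 of day D, both of which were also low in PRPS1, while 18qNE clone 3, low in PRPS1 too, read 1.65 CPM.

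**Figure D4:**
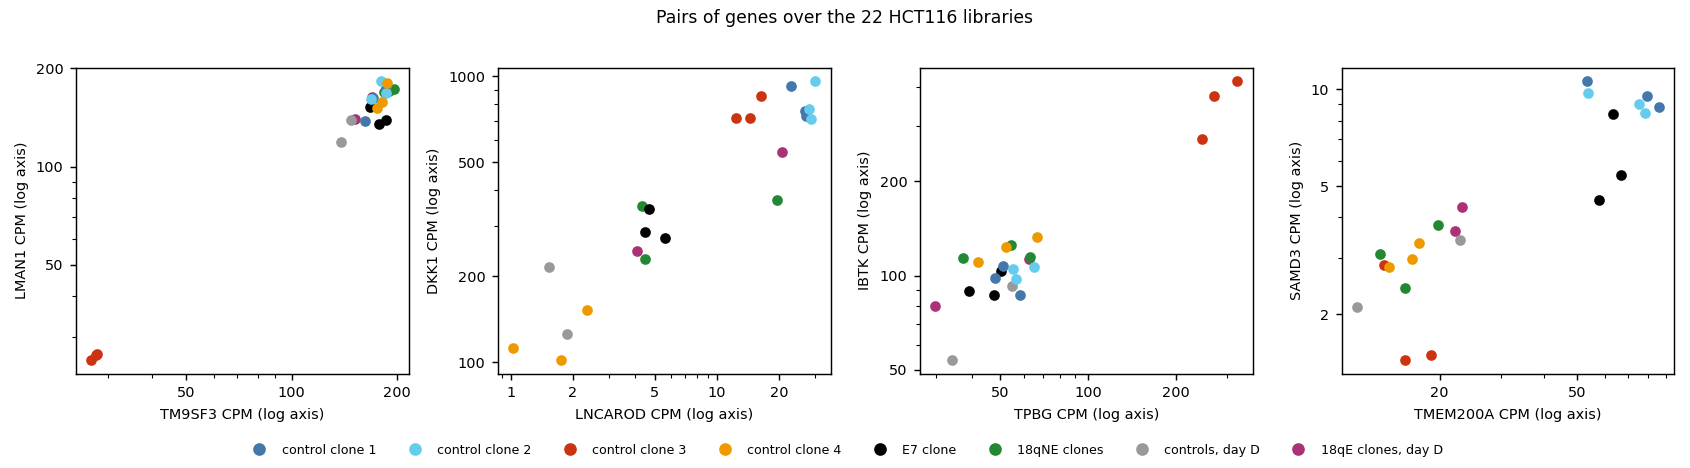
CPM of 4 pairs of genes (both axes logarithmic) in the 22 HCT116 libraries, with 1 point per library coloured by clone or group. TM9SF3 and LMAN1 separate the 3 libraries of clone 3 from a tight group, TPBG and IBTK separate the same 3 upward, and LNCAROD with DKK1 and TMEM200A with SAMD3 spread over several levels.

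Extraction day moved some of the genes within clones. Their differences between clones were larger, which follows from how the 10 were chosen. With clone as a term, edgeR called 5652 of 14441 genes (39.1%) between days A, B and C, and 4 of the 10, a similar share. TMEM200A was higher on days B and C than on day A (log2 0.47 and 0.52, adjusted p = 0.000723 over both days), with means over the 4 clones of 33.8, 47.7 and 49.2 CPM. TPBG was lower (-0.34 and -0.23, adjusted p = 0.00773) and CD33 higher (0.37 and 0.28, adjusted p = 0.0298). LRP1B was lower on day B (-1.06, adjusted p = 0.00264), with means of 5.67, 2.51 and 5.19 CPM. Without control clone 3, 2 of the 10 were called between days, and 3492 of 14482 genes.

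The E7 deletion was compared with all 4 control clones after summing the libraries of each clone, so that the spread between control clones is the error. Of 17664 genes 2456 (13.9%) were called, and of the 10 only CD33 was. Against 1706 counts of CD33 over the controls, the E7 clone had 3, a pooled ratio of 155 (exact 95% interval 53.1 to 755, for counting error only). The fitted log2 difference was -7.19 (SE 1.82, edgeR adjusted p = 0.0385) with 1 E7 clone, whose level was under all 12 control libraries. The nearest control was clone 4, with 61 counts in 3 libraries, 23.2-fold above the E7 clone (7.57 to 116). The call ended without control clone 1 (adjusted p = 0.0665, edgeR), without control clone 2 (0.0827) or without the E7 library of day A (0.0547), and the fitted value ranged from -6.54 to -11.6 over the left-out clones and libraries. The lowest of these left out day B, the only day with a count, and such fitted values depend on the prior count. Every E7 library was below all 12 control libraries for 7.65% of 14685 genes, and CD33 was the only one of the 10.

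The other 9 genes did not pass the test against the spread of the control clones. The 10 were chosen for a large spread between these clones, which is the error of this test, so a miss says little about them. MAL2 had a log2 difference of -1.31 (SE 0.54, edgeR adjusted p = 0.152), and without control clone 3, which was as low as the E7 clone, it was -1.57 (adjusted p = 0.000275). LRP1B stood at 1.06 (SE 1.41, adjusted p = 0.666 by edgeR) with clone 3 and at 3.04 (adjusted p = 0.0144) without it. LNCAROD stood at -1.82 (SE 1.18, adjusted p = 0.346 by edgeR), and at -2.20 (adjusted p = 0.0135) without control clone 4. For these 3 genes the outcome thus turned on which control clones were present. The clone left out was in each case the control clone for whose distance the gene stands out. Leaving it out shrinks the error by design, so these adjusted p-values say nothing on the deletion. UTS2B (-3.39, SE 2.47) and TPBG (-1.27, SE 1.02) had large SEs, and in both the control clone 3 alone was high. The deletion is represented by 1 clone, so its effect and a difference between clones cannot be told apart.

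Set against each control clone singly, with the extraction days as the error, the E7 clone differed in 5 of the 10 genes from clone 1, in 7 from clone 2, in 9 from clone 3 and in 6 from clone 4. The background of genes called was 33.6%, 30.5%, 34.6% and 29.9%. Those contrasts compare clones and not the presence of E7, and the control side was chosen to vary, so the counts support nothing on their own. CD33 was lower than in each of the 4 clones (log2 -7.72, -7.43, -7.14 and -4.33), and LRP1B was higher than in clones 1, 2 and 4 (5.52, 3.40 and 1.97) and lower than in clone 3 (-0.62, edgeR adjusted p = 0.00494). MAL2 was lower than in clones 1, 2 and 4 (-1.50, -1.43 and -1.77) and at -0.10 (SE 0.07, edgeR adjusted p = 0.307) against clone 3. LNCAROD was lower than in clones 1, 2 and 3 (-2.37, -2.53 and -1.56) and higher than in clone 4 (1.53). TM9SF3 was within 0.03 of clones 1, 2 and 4, with an SE of 0.07 each, and 2.66 above clone 3. Where the E7 clone sat with control clones, these differed between genes. They were clone 4 for PRPS1 (0.04, SE 0.10), clones 1 and 2 for TMEM200A (-0.19 and -0.10, SE 0.11 each) and clone 3 for MAL2. For CD33, LRP1B and LNCAROD the E7 clone differed from all 4.

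**Figure D5:**
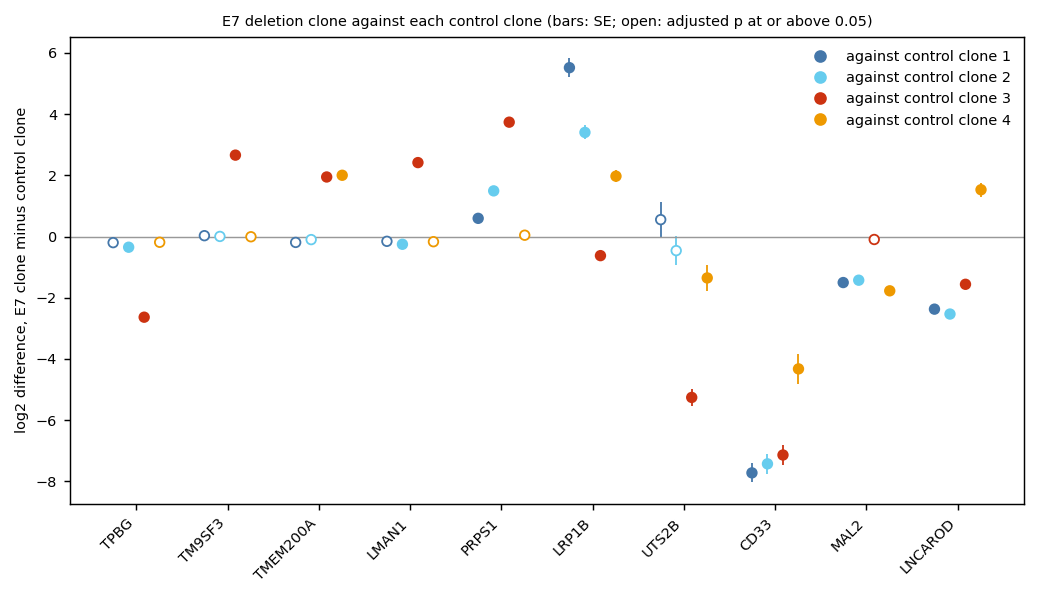
Log2 difference (vertical axis) of the E7 clone minus each of the 4 control clones for the 10 genes, with bars of SE from edgeR and open points where the adjusted p is 0.05 or more. CD33 lies below 0 against every clone, between -7.72 and -4.33, while TPBG, TM9SF3, LMAN1, PRPS1 and UTS2B are far from 0 mainly against clone 3.

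Lists of relatives were read in the E7 clone in the same fit. Over all genes 7.58% were higher and 6.32% lower. Among transport genes 6 of 29 were higher and none lower, including MCFD2 (log2 0.45, SE 0.08, edgeR adjusted p = 0.00885), ERGIC2 (0.66) and F8, coagulation factor VIII (2.03). Of 20 genes of purine synthesis 3 were lower, PFAS (-0.75), IMPDH2 (-0.34) and PPAT (-0.32). Of 17 MARVEL proteins and partners of MAL2, 4 were higher, among them CMTM7 (1.05) and MUC1 (0.79), and 2 were lower, TPD52L1 (-0.51) and MARVELD1 (-0.44). Of 15 Wnt receptors and partners of TPBG, 1 was higher and 2 were lower, and in the TM9SF family none of 3 was called. The median log2 difference was 0.08 for the transport genes, -0.17 for the purine genes, -0.10 for the MARVEL list and -0.31 for the Wnt list, against -0.01 for all genes tested. Of 4 tested relatives of CD33 only CD22 was called, higher (2.99, SE 0.44).

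The 18qNE clones differed among themselves in several of the 10 genes. Their place in the control range is a description, since the genes were chosen for a wide range. None of the 15524 tested genes was called (0%) by edgeR against control clone sums of days A and B, with 505 at an unadjusted p under 0.05, and DESeq2 called 13, none of them among the 10. Each 18qNE clone was read on day A or day B only, while the control sums held both days, and day was not a term. UTS2B (log2 -3.53, SE 1.57) and TMEM200A (-1.29, SE 0.54) had an unadjusted p of 0.0492 and 0.0389, with an adjusted p of 1 by edgeR. No gene of the 10 had all 3 clones below or above the 12 control libraries, and over all genes this held for 0.279% below and 0.170% above. Clone 2 lay outside the control range in 4 genes: above it for TM9SF3, PRPS1 and CD33 and below it for TPBG. Clone 1 was outside for TM9SF3 alone (above) and clone 3 for TMEM200A alone (below), where 29.8%, 19.1% and 13.3% of all genes were outside in clones 1, 2 and 3. Clone 3 differed from the other 18qNE clones in PRPS1 (8.33 CPM against 73.2 and 117) and in LNCAROD (19.6 CPM against 4.30 and 4.47).

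For the 18qE clones the reference was the pair of day D controls that went against their labels. edgeR called none of 15261 genes (0%), with 391 at an unadjusted p under 0.05, and DESeq2 called 19, none of them among the 9 of the 10 that were tested. LRP1B was too low on day D to pass the count filter. LNCAROD had a log2 difference of 2.94 (SE 0.72, unadjusted p = 0.00397), CD33 of 2.83 (SE 0.72, unadjusted p = 0.005) and MAL2 of 0.57 (SE 0.19, unadjusted p = 0.02), each with an edgeR adjusted p of 1. Without 18qE clone 1 the differences were 1.25 for LNCAROD and 1.16 for CD33, and without 18qE clone 2 they were 3.69 and 3.59 and were called (edgeR adjusted p = 1.05e-07 for each), the lone 18qE library assumed to vary like the controls. Both 18qE libraries lay above both controls for TM9SF3, LMAN1, CD33, MAL2 and LNCAROD, and for 10.4% of all genes. For CD33 and LNCAROD the day D controls stood near the level of control clone 4, and against the 12 control libraries of days A to C the 18qE clones were inside the range for LNCAROD. In CD33, 18qE clone 1 (24.6 CPM) was above that range of 1.40 to 20.2 CPM and 18qE clone 2 (4.85 CPM) inside it. PRPS1 was also split by the controls: without the library labelled control clone 1 the log2 difference was 4.01 (edgeR adjusted p = 0.00768, the lone control assumed to vary like the 18qE libraries), and with both it was 1.03 (SE 0.89).

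HEK293 listed TPBG, TM9SF3, LMAN1, PRPS1 and MAL2. TPBG read 59.0 and 45.8 CPM in the controls and 58.7 and 68.0 CPM in the E7 libraries, with no library near the 246 to 325 CPM of HCT116 control clone 3. TM9SF3 read 340 and 252 CPM against 371 and 364 CPM, LMAN1 274 and 207 CPM against 289 and 265 CPM, and PRPS1 144 and 198 CPM against 141 and 142 CPM. MAL2 read 57.9 and 46.7 CPM in the controls and 92.8 and 89.6 CPM in the E7 libraries, which lie above both controls. Its log2 difference was 0.74 (SE 0.18, unadjusted p = 0.00836, adjusted p = 0.243 by edgeR), where 3 of 11806 genes were called (0.0254%), 1487 had an unadjusted p under 0.05, and DESeq2 called 463 genes and none of the 5. MAL2 thus pointed upward in HEK293 E7 libraries and downward in the HCT116 E7 clone. The difference between the 2 lines, a comparison added after the data were seen, was 2.07 in log2 units (SE 0.69, adjusted p = 0.158 by edgeR), with 401 of 11849 genes (3.38%) called. That fit joined HCT116 clone sums with single HEK293 libraries, whose E7 pair carries the same clone name. Its SE therefore mixes spread between clones with spread between libraries. Without HEK293 control 1, 4 of the 5 genes were called beside 6210 of 11830 genes, and without HEK293 control 2 only MAL2 was, beside 1914 of 11823 genes, the lone control assumed to vary like the E7 libraries.

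Counted over all 10 genes and 22 HCT116 libraries, 16 of 220 values were off and 190 were on. The off values belonged to UTS2B (8), LRP1B (5) and CD33 (3, all of the E7 clone). The other 7 genes were on in every library, so by these limits their differences between clones were between a lower and a higher level and not between absence and presence. LNCAROD was close to the limit of 1 CPM in control clone 4 (1.03 to 2.34 CPM) and in the day D controls (1.52 to 1.86 CPM). Of the 17 values outside the range of the 12 control libraries, 5 were in the E7 libraries, 6 in the 18qNE libraries, 3 in the 18qE libraries and 3 in the day D controls. Over all tested genes, 34.2%, 31.1% and 33.9% lay outside that range in the E7 libraries, 31.5% and 16.3% in the 18qE libraries, and 16.4% and 21.1% in the day D controls. The 10 were chosen for a wide control range, so nothing is read from their lower share.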

How the data were processed

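RNA from HCT116 and HEK293 clones was sequenced, and the authors deposited raw read counts per gene, 1 library per file. Per the submitters' processing notes, TopHat2, HTSeq 0.6.1 and hg19 were among the tools and build used, and the strand setting was not given in the sources used here. Summary lines outside genes were left out. Chromatin samples were not analysed here. CPM was taken over gene counts. Tests used edgeR 4.0.16 in R 4.3.3 (TMM, quasi-likelihood F test, 2-sided, filterByExpr with minimum count 10, Benjamini-Hochberg adjustment over all tested genes, threshold 0.05), with DESeq2 1.42.0 as an alternative. The script was tested on simulated data. Symbols and gene order came from RefSeq tables of GRCh38.p14. E7 and 18qNE were tested on clone sums, so p-values measure the spread between clones. Elsewhere libraries were used, and where they belong to 1 clone p-values measure only the spread between extractions.

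The list of relatives of LRP1B is not reported here. The genes and lists were chosen with earlier results of these data known. Named genes were the 10 genes, called relatives (at most 4 per list and comparison), neighbours within 5 genes and the 2 genes closest in pattern. Called neighbours beyond the largest of each gene were named after their values were seen. Replicate numbers of control and E7 libraries stand for extraction days in the labels. Same-day deviations correlated at a median of 0.45 (0.16 to 0.81, 30 pairs) and other days at -0.32, so day was a term in the fits between clones.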

Additional observations from a re-analysis of the deposited data

Results flagged for a closer look

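In 5 of the 10 genes the mean of control clone 3 lay so far from the means of the other 3 control clones that its gap to the nearest was over 0.829 of the whole range of the 4 means. The clone 3 means were 280 CPM for TPBG (280.4), 27.5 CPM for TM9SF3, 26.2 CPM for LMAN1, 14.3 CPM for LRP1B and 14.0 CPM for UTS2B (13.98), and the gap took 0.972, 0.947, 0.912, 0.842 and 0.947 of the range. Chance gives such a gap in about 1 in 20 groups, and the genes were chosen for their difference between these clones, so the number of gaps is a description.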

How the results depend on the processing

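Genes called between control clones numbered 1158, and 249 without the day term (no replicate block), 1959 without the count filter, and 308 to 1694 with a day left out. Genes called between days numbered 2216 to 6368 with a control clone left out, and members called 2 to 4, or 0 without the clone term. For E7, libraries with the day as replicate block called 5178 genes and 2 members (CD33 and MAL2, the latter -1.32, adjusted p = 0.00852). Leaving out a clone or an E7 library gave 1477 to 3087 genes and 0 to 3 members. In the single-clone contrasts, dropping the day (no replicate block) gave 2499, 2355, 2715 and 2233 genes for clones 1 to 4. For 18qNE, DESeq2 called 13 genes, no filter 16, libraries with a day term 3, and leave-one-out 0 to 1. For 18qE, DESeq2 called 19, and leave-one-out 0 to 132 genes and 0 to 2 members. For HEK293, DESeq2 called 463, the number as replicate block 670, and leave-one-out 74 to 6210 genes and 0 to 4 members. The off count was 3 under the lower limits (0.1 and 0.5 CPM) and 30 under the higher (1 and 2 CPM).

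Leave-one-out ranges crossed 0 for differences that did not pass the test with all libraries: LMAN1 in E7 (-0.18 without control clone 3, up to 0.32), PRPS1 in 18qNE (-0.27 without clone 2, up to 0.98), LRP1B (-2.37, and 0.36 without control clone 3) and MAL2 (0.38, and -0.062 without control clone 3) in 18qNE, TPBG in 18qE (-0.49 without 18qE clone 2, -0.22 without the library labelled control clone 2, up to 0.48), UTS2B in 18qE (-1.37, and 0.63 without that labelled control clone 1) and LMAN1 in HEK293 (-0.018 without control 2, up to 0.31). The cause was not tested. In 18qE and HEK293 the labels do not say whether equal numbers share a source, and 1 correlation of deviations for each (0.068 and 0.35) cannot decide it. The HEK293 value lay within the range of same-day pairs (0.16 to 0.81). With the number as replicate block, none of the 18qE genes and 670 HEK293 genes were called.

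With 1 library left in an arm, that library is assumed to vary like the other group. Values under about 3 counts (UTS2B, LRP1B in clone 1, CD33 in E7) are set by counting error.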
